A study of Mus musculus and Rattus norvegicus with 21 samples.

Results

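The genes of the chemokines and of their receptors were followed through 10 peak lists from mouse thyroid glands. Members were all protein-coding mouse genes whose symbol is Ccl, Cxcl, Ccr or Cxcr with a number and, in some, a final letter, plus Cx3cl1, Cx3cr1 and Xcl1. In the GRCm38 RefSeq annotation this rule gave 55 genes, 38 ligands and 17 receptors, of 21000 protein-coding genes with a curated transcription start site (TSS). The rule uses symbols and no measured value, although the group was picked for description with earlier results of these data known. ChIP-seq (chromatin immunoprecipitation followed by sequencing) had been done on thyroids of C57BL/6 mice labelled as 1 month old. The transcription factors (TFs) NKX2.1 and PAX8 were profiled in mice labelled wild-type (WT) on the low iodine diet (LID, TD.95125, which raises thyroid-stimulating hormone). The histone marks H3K4me3 and H3K27me3 were profiled in WT and in Glis3-deficient mice (Glis3KO, labelled B6.Glis3<tm2(mCherry)Amj>), each on the NIH-31 normal diet (ND) or the LID. This gave the groups WT-ND and Glis3KO-ND, and WT-LID and Glis3KO-LID, and values of all 4 are given in that order, the ND before the LID and WT before Glis3KO. The study's methods describe the mice of the factor libraries differently, as older Glis3-EGFP animals carrying a GLIS3-EGFP fusion, and give the knockout allele another number. A peak of a TF and a region of a histone mark at one gene may therefore come from different mice. Each group had 1 library per antibody, so no difference between groups has a replicate check, no test was made, and every value below describes these libraries.

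Chemokines are small secreted proteins that direct the migration of leukocytes by binding G protein-coupled receptors on their surface. Inflammatory chemokines are induced by NF-kB and interferon signals in many cell types, epithelial cells among them, whereas homeostatic chemokines are made constitutively to place lymphocytes and progenitors in tissues. Most of the receptors are found on leukocytes, and in the thyroid both sides of the system are known from autoimmune disease, in which follicular cells can secrete CXCL10. H3K4me3 is the mark of active or poised promoters, H3K27me3 is the mark laid down by Polycomb repressive complex, and NKX2.1 and PAX8 are the homeobox and paired-box TFs that define the follicular cell.

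There were 46636 peaks of NKX2.1 and 51586 of PAX8, each 300 bp wide, from 15692 to 17044 H3K4me3 regions, and 3050, 4116, 2631 and 18040 H3K27me3 regions in WT and Glis3KO on the ND and in WT and Glis3KO on the LID. The study reports fewer peaks of each TF in mouse thyroid, so the lists used here are not the same peak sets. The Glis3KO-LID list of H3K27me3 stood apart, with 55.11 Mb covered against 7.47 to 13.26 Mb in the others. The lists give positions only, so the read depth is unknown and a longer list cannot be told from a deeper or cleaner library. The narrowest region was 501 bp for H3K4me3 and 1001 bp for H3K27me3 in every list, the smallest size the caller returned. At the Glis3 gene itself the H3K4me3 regions covered 1337, 1548, 1311 and 1356 bp around the start site in WT and Glis3KO on the ND and in WT and Glis3KO on the LID, so the mark there does not check the deletion. The labelled tissue was checked against marker genes. Over all genes, 66% had H3K4me3 in at least 1 library, 35.4% an NKX2.1 peak and 42% a PAX8 peak. All 10 thyrocyte markers had H3K4me3 in at least 1 library and 9 of 10 had an NKX2.1 peak. None of 12 leukocyte markers, Ptprc, Cd3e, Itgam and Adgre1 among them, had H3K4me3 in a library or a TF peak, and 1 had H3K27me3 in Glis3KO-LID. Endothelial markers had H3K4me3 at 7 of 8 genes, with summed coverage of 3743, 4302, 7130 and 6829 bp in WT and Glis3KO on the ND and in WT and Glis3KO on the LID. Fibroblast markers had it at 5 of 8 genes, with 2785, 4278, 4771 and 2805 bp, and skeletal muscle markers at 0 of 6. The part of these other cell types in the results below was not tested, and in whole glands fewer cells of a type cannot be told apart from less of a mark per cell.

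The promoters of 4 genes and 3 factor peaks carry the findings that follow, and their sequences are given first. The promoters are those of the neutrophil-attracting ligands Cxcl1, Cxcl2 and Cxcl3 and of the interferon-induced ligand Cxcl10, whose marks differed between libraries or, for Cxcl1, did not. Each runs from 250 bases before to 50 after a start site (RefSeq, GRCm38, the assembly also called mm10) and is written 5′ to 3′ on the gene's strand. Capitals mark matches to an NF-kB site (GGNNTTTCC), an interferon response element (TTCNNTTTC) or a TATA box (TATAAA) on either strand, and none of the matches shown overlapped another.
Cxcl1 promoter, chr5:90890995-90891294, plus strand: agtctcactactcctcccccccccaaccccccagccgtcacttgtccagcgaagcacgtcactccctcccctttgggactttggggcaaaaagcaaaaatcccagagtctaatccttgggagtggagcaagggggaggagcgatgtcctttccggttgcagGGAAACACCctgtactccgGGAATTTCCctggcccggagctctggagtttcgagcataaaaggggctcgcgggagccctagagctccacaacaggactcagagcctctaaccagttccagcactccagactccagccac
Cxcl2 promoter, chr5:90903649-90903948, plus strand: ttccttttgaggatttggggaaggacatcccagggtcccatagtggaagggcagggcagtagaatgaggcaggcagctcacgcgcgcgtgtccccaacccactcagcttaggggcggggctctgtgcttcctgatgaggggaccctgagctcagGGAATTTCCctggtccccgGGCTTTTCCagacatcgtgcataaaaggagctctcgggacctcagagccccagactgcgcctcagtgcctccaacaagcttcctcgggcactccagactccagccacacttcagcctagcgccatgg
Cxcl3 promoter, chr5:90785851-90786150, plus strand: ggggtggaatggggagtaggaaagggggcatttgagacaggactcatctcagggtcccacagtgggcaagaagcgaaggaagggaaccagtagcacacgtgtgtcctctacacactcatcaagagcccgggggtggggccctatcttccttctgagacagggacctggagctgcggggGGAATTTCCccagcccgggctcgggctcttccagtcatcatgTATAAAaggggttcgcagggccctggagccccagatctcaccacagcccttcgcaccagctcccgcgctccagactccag
Cxcl10 promoter, chr5:92348840-92349139, minus strand: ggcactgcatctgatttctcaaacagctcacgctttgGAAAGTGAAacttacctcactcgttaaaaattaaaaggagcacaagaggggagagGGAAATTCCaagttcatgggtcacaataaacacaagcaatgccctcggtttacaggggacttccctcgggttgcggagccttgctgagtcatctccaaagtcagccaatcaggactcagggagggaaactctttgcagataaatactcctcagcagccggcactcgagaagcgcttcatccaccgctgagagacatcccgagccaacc

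The 3 peaks are read from the same assembly on the plus strand. In the peaks at Ccl17, a ligand for T cells, and at Ccr9, the receptor of CCL25, capitals mark the bases that also lay inside a PAX8 peak, which were 294 and 289 of the 300. In the peak between Cxcl3 and Cxcl15 capitals mark a CACTTG core, which NKX2.1 is known to prefer, and a TCATGC partial site of the kind that PAX proteins bind.
Ccl17 NKX2.1 peak, chr8:94807522-94807821, plus strand: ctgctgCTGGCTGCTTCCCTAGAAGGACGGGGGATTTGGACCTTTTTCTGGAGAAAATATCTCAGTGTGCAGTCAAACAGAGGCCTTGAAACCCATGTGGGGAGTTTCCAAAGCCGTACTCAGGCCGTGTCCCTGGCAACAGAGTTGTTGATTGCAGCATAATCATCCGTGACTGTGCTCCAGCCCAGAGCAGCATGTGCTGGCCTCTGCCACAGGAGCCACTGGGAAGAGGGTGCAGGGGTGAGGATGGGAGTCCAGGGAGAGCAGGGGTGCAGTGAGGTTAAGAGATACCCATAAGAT
Ccr9 NKX2.1 peak, chr9:123767539-123767838, plus strand: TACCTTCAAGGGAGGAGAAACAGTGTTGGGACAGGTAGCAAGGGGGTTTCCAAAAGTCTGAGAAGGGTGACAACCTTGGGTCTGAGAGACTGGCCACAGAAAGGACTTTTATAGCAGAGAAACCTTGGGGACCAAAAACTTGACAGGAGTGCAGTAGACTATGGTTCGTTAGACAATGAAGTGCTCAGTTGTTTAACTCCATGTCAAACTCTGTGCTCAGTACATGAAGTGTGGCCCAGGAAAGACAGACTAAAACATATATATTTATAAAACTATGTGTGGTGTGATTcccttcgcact
NKX2.1 peak between Cxcl3 and Cxcl15, chr5:90790269-90790568, plus strand: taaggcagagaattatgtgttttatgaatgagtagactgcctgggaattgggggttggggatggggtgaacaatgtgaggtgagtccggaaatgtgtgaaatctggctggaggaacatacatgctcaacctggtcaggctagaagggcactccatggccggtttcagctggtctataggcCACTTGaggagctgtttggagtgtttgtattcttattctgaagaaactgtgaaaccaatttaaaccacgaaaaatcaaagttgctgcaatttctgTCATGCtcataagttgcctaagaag

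A smaller share of the chemokine system genes than of all genes had H3K4me3, an NKX2.1 peak or a PAX8 peak. For H3K27me3 this did not hold in Glis3KO-LID. NKX2.1 had a peak within 5 kb of a start site at 13 of 55 genes (23.6%), compared with 35.4% of all protein-coding genes. PAX8 had one at 15 (27.3%), compared with 42%. Overlapping peaks of both TFs, sharing at least 1 bp, were found at 7 (12.7%; all genes 16.8%), and 36 had neither TF (65.5%; all genes 47.8%). H3K4me3 lay within 1 kb of a start site at 9 genes in WT-ND (16.4%), whereas 62.2% of all genes were marked there. It lay at 10 genes (18.2%) in each of Glis3KO-ND, WT-LID and Glis3KO-LID, beside 62.5, 63 and 60.1% of all genes. In at least 1 library 12 genes were marked (21.8%; all genes 66%), and in all 4 libraries 8 were (14.5%; all genes 56.6%). H3K27me3 lay at 1, 4, 1 and 14 genes in WT and Glis3KO on the ND and in WT and Glis3KO on the LID, beside 6.44, 8.68, 6.5 and 17.5% of all genes. At least 1 library had it at 14 genes (25.5%; all genes 17.7%) and all 4 libraries at 1 gene (1.82%; all genes 4.18%). No peak of any of the 10 lists was found at 30 genes (54.5%), against 24.5% of all genes. Split by role, H3K4me3 was found at 10 of 38 ligands and 2 of 17 receptors, and H3K27me3 at 7 ligands and 7 receptors. Without the Glis3KO-LID library H3K27me3 was left at 4 genes.

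**Figure D1:**
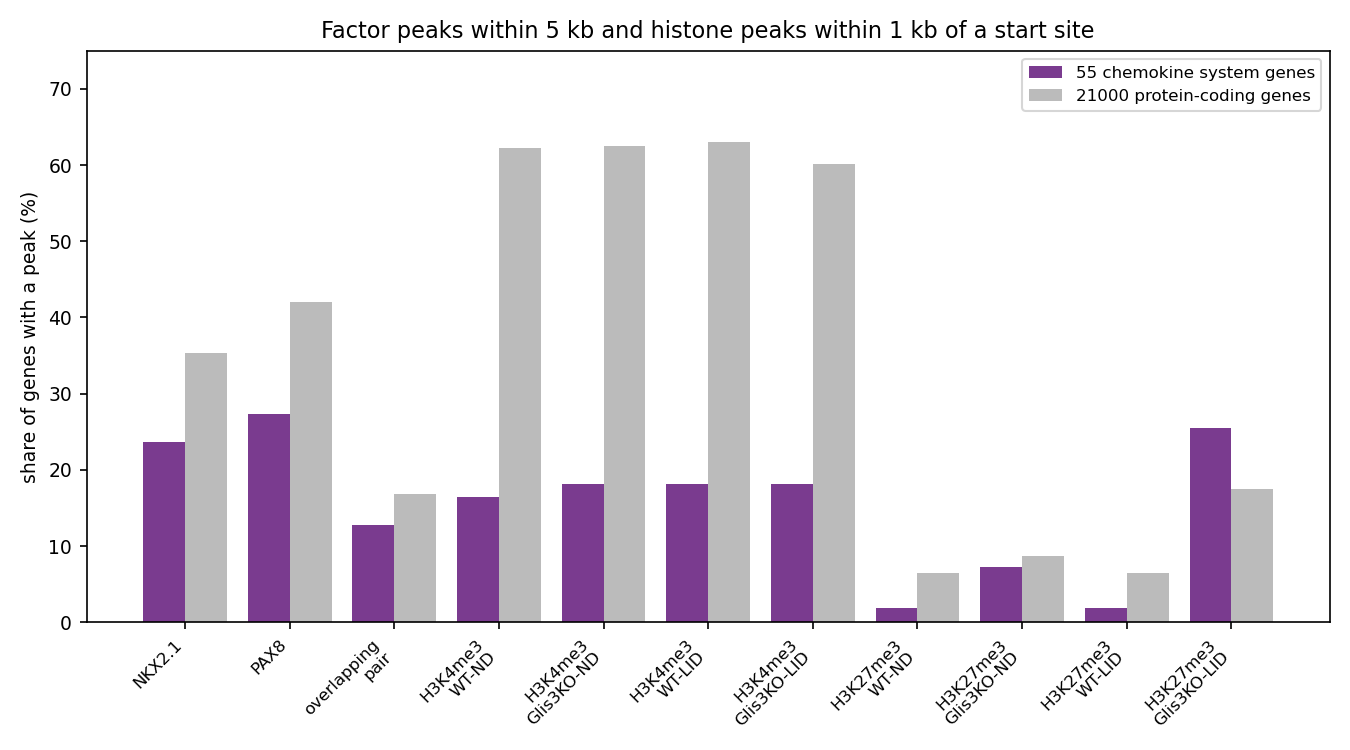
The bars give the share of genes (%) with a TF peak within 5 kb or a histone region within 1 kb of a start site, for the 55 chemokine system genes and for all 21000 protein-coding genes, with 1 library per bar pair. H3K4me3 was found at 16.4 to 18.2% of the chemokine system genes and at 60.1 to 63% of all genes, and only in the Glis3KO-LID list of H3K27me3 was the share of chemokine system genes above that of all genes (25.5 and 17.5%).

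Of the 5 neutrophil-attracting CXC ligands, 4 had H3K4me3 in at least 1 library, and at 3 of these it differed between libraries. Their genes Cxcl5, Cxcl3, Cxcl15, Cxcl1 and Cxcl2 lie within 154.6 kb on chromosome 5, with 5 kb added beyond the outer start sites. The proteins of Cxcl1, Cxcl2, Cxcl3 and Cxcl5 act through CXCR2. Cxcl1 (chromosome 5, 90891245 to 90893121, plus strand) had H3K4me3 over 1032, 1292, 1022 and 908 bp of the 2001 bp window in WT and Glis3KO on the ND and in WT and Glis3KO on the LID. Its promoter was thus marked in all 4 libraries, with no H3K27me3 and no TF peak within 5 kb. Cxcl2 (90903899 to 90905938), whose start site lies 12654 bp away, had 0, 1263, 0 and 501 bp of H3K4me3 in the same order. Cxcl5 (90759298 to 90761625) had 0, 1001, 0 and 888 bp. Both genes were marked in the Glis3KO libraries of both diets and in neither WT library, a pattern of 2 of 55 genes (3.64%) and of 0.281% of all genes. The thyrocyte marker Tg had this pattern too, with 0, 1056, 0 and 1091 bp of H3K4me3 in the same order. What produced the pattern was not tested. The region of Cxcl2 in Glis3KO-LID had the narrowest width that the caller returned.

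H3K27me3 was also found at Cxcl5 and Cxcl2. At Cxcl5 it covered 0, 1694, 0 and 1870 bp in WT and Glis3KO on the ND and in WT and Glis3KO on the LID, in regions of 2033 and 4520 bp. At Cxcl2 it covered 1866 bp in Glis3KO-LID and 0 bp in the others. Cxcl3 (90786101 to 90788093) had the marks in different libraries. Its H3K4me3 appeared in WT-LID alone, over 759 bp, whereas its H3K27me3 covered 0, 1255, 0 and 1953 bp. Cxcl15, a lung-expressed ligand also called lungkine, had neither mark. Over the whole cluster H3K27me3 regions summed to 0, 5.3, 0 and 13.1 kb. With the H3K27me3 lists held to the 2631 widest regions each, the length of the shortest list, Cxcl5 kept its region in Glis3KO-ND only and Cxcl2 and Cxcl3 had none. The cut asked for wider regions in the longer Glis3KO-LID list. The Cxcl5 region it dropped there (4520 bp) was wider than the one kept in Glis3KO-ND (2033 bp). A region lost by this cut is therefore not a smaller region.

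**Figure D2:**
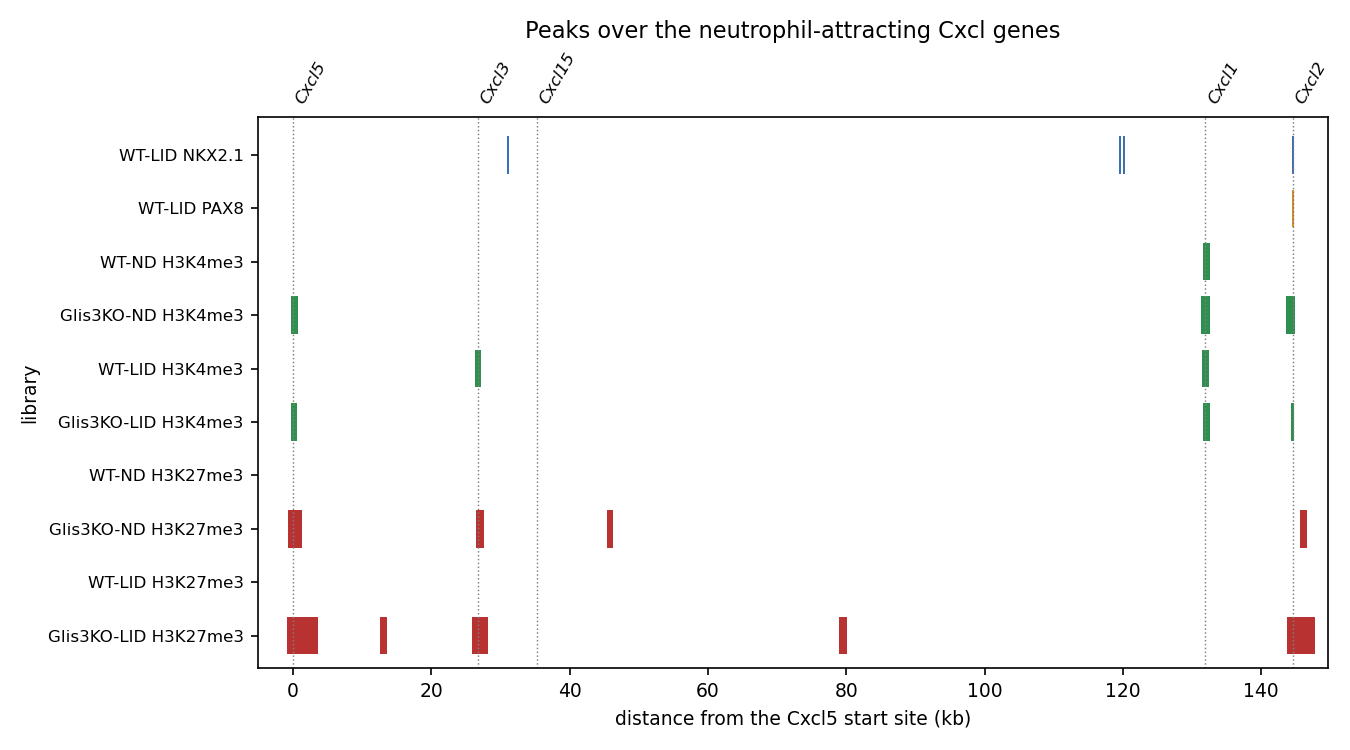
The map shows the peaks of the 10 libraries over the chromosome 5 cluster by distance from the Cxcl5 start site (kb), with a dotted line at each start site and boxes drawn to scale (at least 0.3 kb wide). H3K4me3 stands at Cxcl1 in all 4 libraries, at Cxcl5 and Cxcl2 in the 2 Glis3KO libraries and at Cxcl3 in WT-LID, and H3K27me3 is seen in the 2 Glis3KO libraries, summing to 5.3 and 13.1 kb.

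Both TFs bound the Cxcl2 promoter. The NKX2.1 peak (90903762 to 90904061) was centred 12 bp after the start site and the PAX8 peak (90903732 to 90904031) at -18 bp, and they shared 270 bp. The 2 NF-kB matches of this promoter, at -96 and -77 bp, lay inside both peaks. The Cxcl1 promoter also held 2 NF-kB matches, at -89 and -70 bp, and that of Cxcl3 held 1 at -72 bp with a TATA box at -30 bp. At Cxcl1 the matches lay under H3K4me3 in all 4 libraries and under no TF peak. At Cxcl3 they lay under H3K4me3 in WT-LID, under H3K27me3 in both Glis3KO libraries and under no TF peak. The single NKX2.1 peak between Cxcl3 and Cxcl15 lay 4317 bp after the first start site and 4116 bp before the second, so it counts for both genes.

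Of the interferon-induced ligands, which recruit T cells through CXCR3, Cxcl10 (chromosome 5, 92346638 to 92348889, minus strand) had H3K4me3 in the WT libraries and Cxcl9 had no mark. H3K4me3 at Cxcl10 covered 501, 0, 635 and 0 bp in WT and Glis3KO on the ND and in WT and Glis3KO on the LID, that is, in WT on both diets and in Glis3KO on none. This was 1 of 55 genes (1.82%), and 0.624% of all genes had that pattern. The region in WT-ND had the narrowest width that the caller returned, and it was lost when the H3K4me3 lists were held to the 15692 widest regions each, while the 635 bp in WT-LID stayed. H3K27me3 covered 296 bp in Glis3KO-LID only. Its NF-kB match at -158 bp and its interferon response match at -213 bp lay under the WT-ND region and outside the WT-LID region, which lay nearer the gene body. NKX2.1 and PAX8 peaks were found at -4319 and -4706 bp, in intron 2 of Art3, and did not overlap.

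Among the 11 homeostatic ligands, Cxcl12, Cxcl14 and Ccl25 carried H3K4me3. Cxcl12 (chromosome 6, 117168535 to 117181368, plus strand), which holds progenitors and lymphocytes in place through CXCR4, had 2001, 1604, 1467 and 1684 bp in WT and Glis3KO on the ND and in WT and Glis3KO on the LID. The regions themselves were 3666, 2149, 3512 and 2541 bp wide, wider in the WT libraries than in the Glis3KO libraries. It was the most heavily bound member, with NKX2.1 peaks at -1296 and 659 bp and PAX8 peaks at -1479, 821 and 4948 bp. The first and second peaks of each TF overlapped by 117 and 138 bp, with midpoints 183 and 162 bp apart. Ccl25, which guides T cells to the thymus and gut, had 1653, 1750, 1947 and 2001 bp and an NKX2.1 peak at 81 bp that shared 168 bp with a PAX8 peak at -51 bp. Its start site lies 110 bp from that of Elavl1, an RNA-binding protein gene expressed in most cells, and every region covered both start sites, so mark and peaks cannot be assigned to Ccl25 alone.

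Cxcl14 (chromosome 13, 56288643 to 56296811, minus strand), an epithelial chemokine, was the member with both marks in all 4 libraries. H3K4me3 covered 1081, 501, 1041 and 957 bp in WT and Glis3KO on the ND and in WT and Glis3KO on the LID. H3K27me3 covered 1769, 2001, 2001 and 2001 bp, in regions 3000, 6093, 3868 and 12606 bp wide. The width of that region was thus largest in Glis3KO-LID and larger in each Glis3KO library than in the WT library of the same diet. The H3K4me3 region in Glis3KO-ND had the narrowest width called. No TF peak was found within 5 kb, and the nearest were 72.1 kb (NKX2.1) and 17.0 kb (PAX8) away. The other 8 homeostatic ligands, which include Ccl19, Ccl28 and Cxcl13, had no peak of any list. For Ccl21a, Ccl21b, Ccl21d, Ccl27a and Ccl27b this is uncertain, since they are near-identical copies and the authors kept reads with a unique hit only.

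Both membrane-tethered ligands were marked and bound. Cx3cl1 (chromosome 8, 94772180 to 94782427, plus strand), the ligand of the monocyte receptor CX3CR1, had 1029, 1692, 1616 and 1340 bp of H3K4me3 in WT and Glis3KO on the ND and in WT and Glis3KO on the LID. NKX2.1 and PAX8 peaks in its exon 1, at 54 and 107 bp, shared 247 bp. Cxcl16, which binds CXCR6 and scavenges oxidised lipoprotein, had 1305, 1365, 1308 and 1159 bp and a PAX8 peak at 161 bp. Its exon 1 overlaps that of Zmynd15, whose start site is 551 bp away, and each of its regions covered both start sites.

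The CC ligands other than Ccl25 had no H3K4me3 in any library. All 4 monocyte-attracting ligands (Ccl2, Ccl7, Ccl8, Ccl12) had no peak of any list. With Ccl11 and Ccl1 they form a cluster on chromosome 11, 154.2 kb with 5 kb added at each end, without a TF peak. Ccl11, the eosinophil attractant eotaxin, had 494 bp of H3K27me3 in Glis3KO-LID in a region that did not reach its start site. Ccl4, a macrophage inflammatory protein, had 1150 bp of H3K27me3 in the same library and a PAX8 peak over exon 3 (1761 bp), and Ccl9 had a PAX8 peak over exon 4 (3351 bp). Ccl17, a ligand of CCR4, was bound by both TFs upstream (-2782 and -2776 bp) with midpoints 6 bp apart, the closest pair among the members, although its promoter carried no mark. The study, by contrast, lists Ccl17 without binding of either TF within 5 kb. Cxcl17, a mucosal CXC-named protein, had an NKX2.1 peak at -66 bp and no mark.

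**Figure D3:**
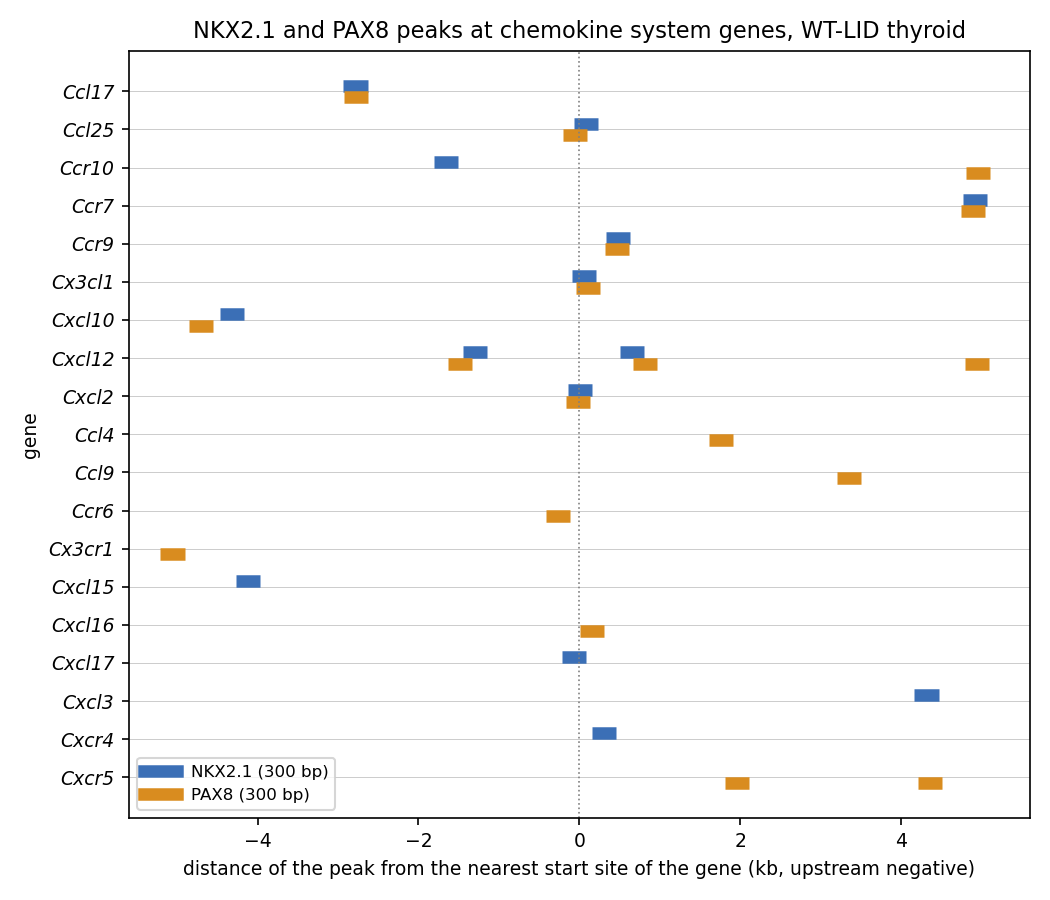
Boxes of 300 bp show the NKX2.1 and PAX8 peaks of the WT-LID libraries by distance from the nearest start site of each bound gene (kb, upstream negative). Overlapping pairs stand at Ccl17, Ccl25, Ccr7, Ccr9, Cx3cl1, Cxcl12 and Cxcl2, and the peaks at Cxcl10 and Ccr10 do not overlap.

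Of the 17 receptors, 4 had an NKX2.1 peak (all genes 35.4%), 6 a PAX8 peak (all genes 42%), 7 H3K27me3 (all genes 17.7%) and 2 H3K4me3 (all genes 66%). In lists of equal length the 7 with H3K27me3 became 2, Ccr10 and Cxcr4. Cxcr4 (chromosome 1, 128588199 to 128592299, minus strand), the receptor of CXCL12, which endothelial and progenitor cells also express, had H3K4me3 over the whole 2001 bp in every library, in regions of 2884 to 3185 bp, and an NKX2.1 peak in intron 1 (303 bp). In Glis3KO-LID the same window was also covered by an H3K27me3 region of 7876 bp, which was kept among the 2631 widest regions of that list. Ccr10, the receptor of CCL27 and CCL28, had 320, 675, 608 and 169 bp of H3K4me3 in WT and Glis3KO on the ND and in WT and Glis3KO on the LID, but no region covered its start site, and Cntnap1 starts 674 bp away. H3K27me3 at Ccr10 covered 0, 425, 0 and 1730 bp, and the 6327 bp region of Glis3KO-LID covered both start sites. Its TF peaks also lay in neighbouring genes, NKX2.1 at -1655 bp in intron 1 of Cntnap1 and PAX8 at 4957 bp in intron 1 of Plekhh3. With Cxcl3 and Cxcl5, Ccr10 was 1 of 3 members (5.45%; all genes 1.76%) with H3K27me3 in the Glis3KO libraries of both diets and no WT library. In lists of equal length none of the 3 kept this pattern, Ccr10 being left in Glis3KO-LID only, Cxcl5 in Glis3KO-ND only and Cxcl3 in neither. That cut asked for wider regions in Glis3KO-LID than in Glis3KO-ND, so it does not compare the 2 libraries at the same width. The Ccr10 region in Glis3KO-ND was 1001 bp wide, the narrowest called.

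The other receptors had no H3K4me3. H3K27me3 was found in Glis3KO-LID alone at Cxcr3 (1541 bp, in a region of 4627 bp), Cx3cr1 (1503 bp), Ccr6 (1119 bp), Cxcr2 (1001 bp) and Ccr7 (710 bp), receptors of T cells, monocytes, B cells and neutrophils. None of these 5 kept a region when the lists were held to equal length. Some were bound without H3K4me3. Ccr7, which brings lymphocytes to lymph nodes, had a pair in intron 1 (4914 and 4890 bp, sharing 276 bp), and Ccr9 had a pair in intron 1 (477 and 466 bp, sharing 289 bp). PAX8 alone was found at Ccr6 (-267 bp), Cxcr5 (1957 and 4363 bp, intron 1) and Cx3cr1 (-5058 bp, at the edge of the window). At Ccr6 this distance is from an internal start site, and the peak lay in intron 1. The H3K27me3 region of Ccr6 covered its most upstream start site instead. Both marks were found together in Glis3KO-LID at 5 genes, Ccr10, Cxcl14, Cxcl2, Cxcl5 and Cxcr4 (9.09%; all genes 10.7%). The inflammatory receptor genes Ccr1, Ccr2 and Ccr3, which lie together on chromosome 9, had no peak of any list.

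**Figure D4:**
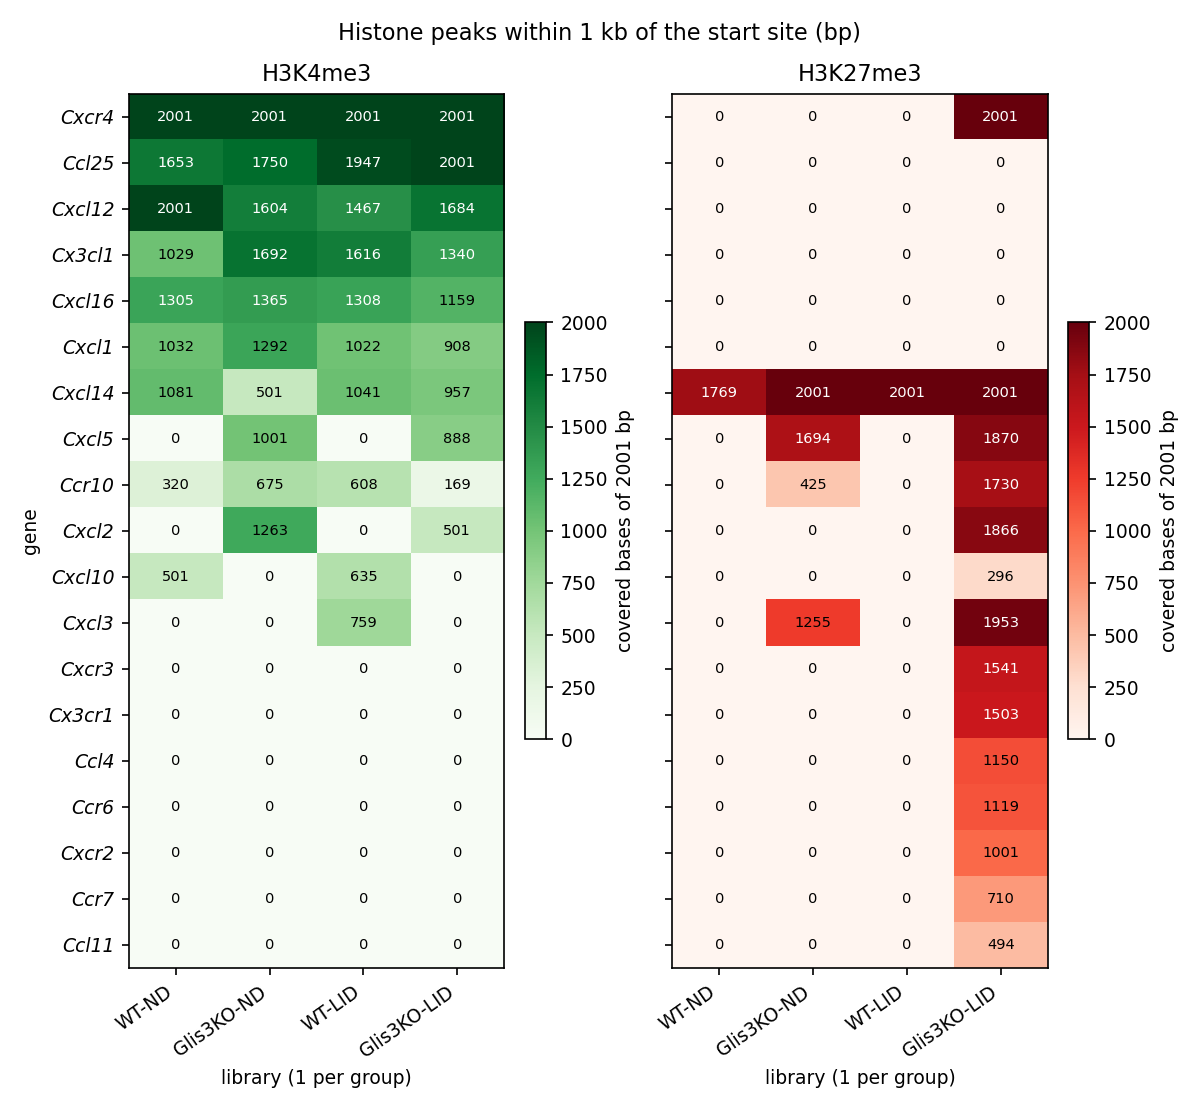
Each cell gives the bases (bp) of the 2001 bp window around the start site that lie in a called region, for the genes with a region in at least 1 library, with 1 library for each group. H3K4me3 (left) fills the window at Cxcr4 in all 4 libraries, and 10 of the 14 genes with H3K27me3 (right) have it in Glis3KO-LID alone.

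The libraries were then compared in pairs, counting genes whose covered bases differed by at least 500 bp. The 4 pairs share libraries, so they are not independent of each other. On the ND, H3K4me3 was larger in Glis3KO than in WT at 3 genes, Cx3cl1, Cxcl2 and Cxcl5 (5.45%; all genes 3.89%), and smaller at 2, Cxcl10 and Cxcl14 (3.64%; all genes 3.89%). On the LID it was larger in Glis3KO at 2, Cxcl2 and Cxcl5 (3.64%; all genes 1.97%), and smaller at 2, Cxcl10 and Cxcl3 (3.64%; all genes 9.25%). Between diets, WT-LID exceeded WT-ND at 2 genes, Cx3cl1 and Cxcl3 (all genes 4.6%), and fell below it at 1, Cxcl12 (all genes 3%). Glis3KO-LID exceeded Glis3KO-ND at 0 genes (all genes 2.44%) and was below it at 2, Ccr10 and Cxcl2 (all genes 7.96%). With 0 to 3 genes in each count, these shares are not read as different from those of all genes. Cxcl2, Cxcl5 and Cxcl10 were counted in the same direction on both diets. For Cxcl2 on the LID and Cxcl10 on the ND this rests on a region of 501 bp, the narrowest called, and in lists of equal length Cxcl10 had no region on the ND.

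For H3K27me3, Glis3KO-ND exceeded WT-ND at 2 genes, Cxcl3 and Cxcl5 (3.64%; all genes 4.20%), and was below it at 0 (all genes 1.01%). Glis3KO-LID exceeded WT-LID at 11 genes (20%; all genes 12.7%) and Glis3KO-ND at 10 (18.2%; all genes 10.5%), and was below them at 0 and 0 (all genes 0.0476 and 0.105%). In lists of equal length these 11 and 10 genes became 2 and 2. WT-LID and WT-ND differed at 0 genes in either direction (all genes 2.48% larger and 2.23% smaller in WT-LID). With equal lists H3K27me3 lay at 1, 2, 1 and 3 members in WT and Glis3KO on the ND and in WT and Glis3KO on the LID, beside 6.05, 7.55, 6.5 and 7.5% of all genes. The 3 in Glis3KO-LID were Ccr10, Cxcl14 and Cxcr4.

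The TF peaks were also farther away. The nearest NKX2.1 peak lay a median of 30.8 kb from a start site of the 55 genes, against 12.2 kb for all genes. The nearest PAX8 peak lay 26.3 kb away, against 8.9 kb. The search had a distance limit, and genes without a peak inside it were left out, here and in the shares beyond 100 kb. It kept all 55 members, 20780 of all genes for NKX2.1 and 20836 for PAX8. The nearest peak was beyond 100 kb for 13 members with NKX2.1 (23.6%; all genes 15.9%) and for 14 with PAX8 (25.5%; all genes 14.5%). Of the members, 38 lie in 12 clusters in which neighbouring start sites are at most 150 kb apart. With 5 kb added at each end, these clusters span 1149.4 kb. They held 1.04 NKX2.1 and 1.39 PAX8 peaks per 100 kb, compared with 1.71 and 1.89 over the genome. NKX2.1 was missing from 7 of the 12 and PAX8 from 5. The peaks were unevenly spread. The cluster of Ccl22, Cx3cl1 and Ccl17 had 4 NKX2.1 and 6 PAX8 peaks in 74.8 kb, that of Cxcl5 to Cxcl2 had 4 and 1 in 154.6 kb, that of Ccr9 and Cxcr6 had 2 and 1 in 49.3 kb, that of Ccl5 to Ccl4 had 1 and 5 in 142.1 kb, and that of Cxcl9 and Cxcl10 had 1 and 1 in 30.8 kb.

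**Figure D5:**
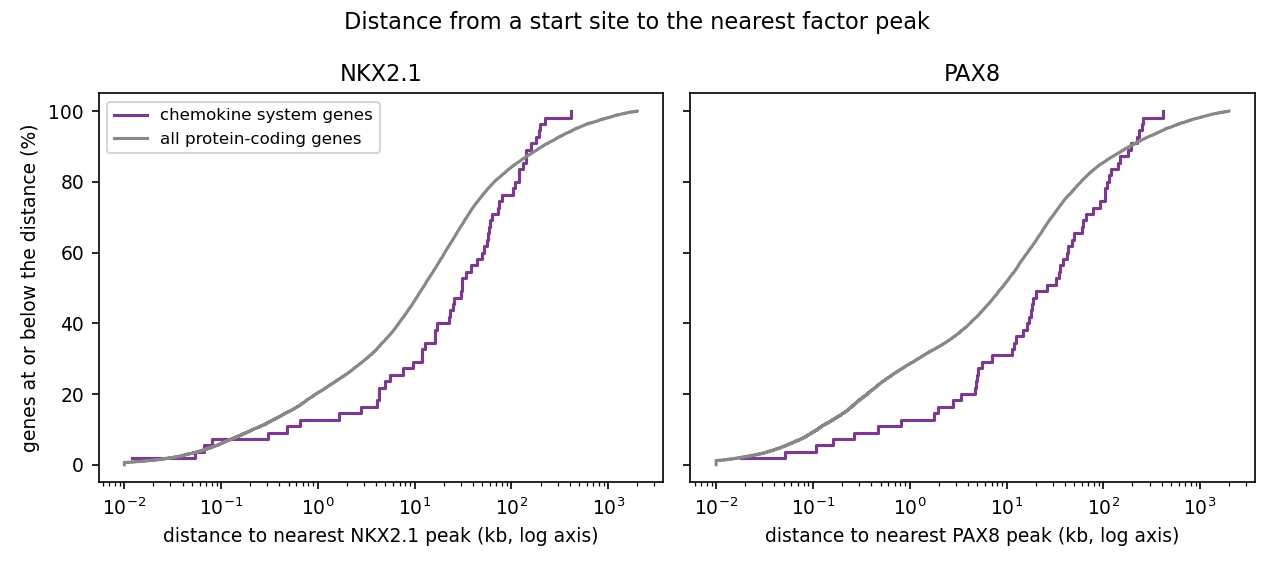
The curves give the percentage of genes at or below a distance (kb, log axis) from the nearest NKX2.1 (left) or PAX8 (right) peak. They are drawn for the 55 chemokine system genes and for all protein-coding genes, each gene by its closest start site. Genes without a peak inside the distance searched are left out. The medians are 30.8 and 12.2 kb for NKX2.1 and 26.3 and 8.9 kb for PAX8.

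Promoters of the marked and unmarked members differed in CpG content, a feature that the symbol rule did not use. RefSeq promoter sequences were matched for 41 members, with 48 promoters between them, and 14 had no entry, Ccl11, Ccl2, Ccl24, Ccl26, Ccl4, Ccl5, Ccl7, Ccr10, Ccr7, Cxcl16, Cxcl17, Cxcl5 and Cxcr5 among them. The ratio of observed to expected CpG, taking the highest promoter of a gene, had a median of 0.23 over the 41 members and of 0.41 over the 27025 genes of the table. The median was 0.7 for the 6 members with H3K4me3 in all 4 libraries and 0.62 for the 9 with it in at least 1. It was 0.2 for the 32 without H3K4me3, whose highest value was 1.17, at Ccl21b. The highest of all was 1.28, at the Ccl25 start site that lies 110 bp from that of Elavl1. The other Ccl25 promoter had 0.05. A ratio of at least 0.6 was reached by 14.6% of members and 38.4% of all genes. A higher and a low ratio are shown by Cxcl14 (0.77), with both marks in every library, and Ccr1 (0.07), with none. In their promoters capitals mark each CpG, 22 and 1 of them.
Cxcl14 promoter, chr13:56296502-56296801, minus strand: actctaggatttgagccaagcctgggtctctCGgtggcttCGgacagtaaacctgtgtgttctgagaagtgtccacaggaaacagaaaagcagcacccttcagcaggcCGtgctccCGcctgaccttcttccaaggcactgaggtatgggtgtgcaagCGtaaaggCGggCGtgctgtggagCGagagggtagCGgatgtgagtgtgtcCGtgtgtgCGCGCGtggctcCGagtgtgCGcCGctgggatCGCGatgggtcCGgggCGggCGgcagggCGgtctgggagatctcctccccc
Ccr1 promoter, chr9:123968643-123968942, minus strand: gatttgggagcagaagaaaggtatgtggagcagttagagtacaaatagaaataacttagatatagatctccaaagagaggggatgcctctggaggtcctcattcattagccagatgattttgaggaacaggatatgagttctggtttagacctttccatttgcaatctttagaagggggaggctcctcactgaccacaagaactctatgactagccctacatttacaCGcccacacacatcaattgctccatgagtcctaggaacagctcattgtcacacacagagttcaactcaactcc

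A gene was counted as holding a motif when any of its promoters did. NF-kB matches were found at 8 of the 41 members (19.5%), compared with 6.62% of the 27025 genes, namely Ccl20, Ccl9, Ccr3, Cxcl1, Cxcl10, Cxcl2, Cxcl3 and Cxcl9. Interferon response matches were found at 8 (19.5%; all genes 9.76%), with Cxcl9 and Cxcl10 in both sets, and a TATA box at 11 (26.8%; all genes 15.7%). The CACTTG core was found at 8 (19.5%; all genes 15.4%) and TCATGC at 6 (14.6%; all genes 10.1%). The same cores were counted in the TF peaks at members. Of 13 distinct NKX2.1 peaks, 1 held CACTTG (7.69%; all NKX2.1 peaks 32.4%), the one between Cxcl3 and Cxcl15 shown above. TCATGC was found in 2 of the 13 (15.4%; all 15.1%) and in 0 of 18 PAX8 peaks (all PAX8 peaks 19.4%), and CACTTG in 3 of the 18 (16.7%; all 26.7%). These are matches of letters, and their absence says nothing on other forms of a site.

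Genes around the chemokine system were described by lists drawn up from general knowledge. For comparison, 66% of all genes had H3K4me3 in at least 1 library, 35.4% an NKX2.1 peak and 42% a PAX8 peak. H3K4me3 in all 4 libraries was found at 56.6% of all genes. The small counts below were not tested against these shares. Of 8 atypical receptors and chemokines with other symbols, 2 had H3K4me3, both in all 4 libraries: Ackr3, the scavenging receptor of CXCL12 (963, 1263, 1354 and 927 bp in WT and Glis3KO on the ND and in WT and Glis3KO on the LID), and Ccrl2 (1535, 1618, 1521 and 1719 bp). Ackr3 also had an overlapping pair of TF peaks, as Cxcl12 did. The platelet chemokine Pf4, next to Cxcl3, had 1001 bp of H3K27me3 in Glis3KO-LID only. Of 23 genes of the NF-kB and interferon pathways, 19 had H3K4me3 and 13 and 12 had NKX2.1 and PAX8 peaks, but the cytokine genes Tnf, Il1b, Il6 and Ifng had no H3K4me3. Of 14 genes of signalling below the receptors, 11 had H3K4me3, and Plcb2, Rac2 and Dock2, the last known from leukocytes, did not.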

How the data were processed

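ChIP-seq of mouse thyroid was used as deposited peak lists, with chromosome, start and end, which the authors made from single-end reads. Per the labels and the study's methods, reads of low mean quality (under 20) were removed, adapters trimmed (cutadapt 1.12), reads aligned to mm10 with Bowtie 1.2 (unique hits), duplicates removed (Picard 1.110) and peaks called with HOMER 4.10.3. Bedtools 2.24.0 is also named. Factor peaks were called against the matching input, and the sources used here do not give the use of an input for the histone marks. Marks were called as regions of variable width. The lists hold no score or fold, so no stricter threshold could be set and no depth or interval can be given.

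Peak positions were counted from 1 and placed against curated RefSeq transcripts of GRCm38.p6 (21000 protein-coding genes, 26242 start sites). A gene was bound when a 300 bp peak overlapped 5 kb either side of a start site by 1 bp, and marked when a region overlapped 1 kb either side. Covered bases are those of the 2001 bp window, taking the start site with the most, and a difference of 500 bp was counted. Python 3.11.15, numpy 2.4.6 and matplotlib 3.10.9 were used, and the counting code was tested on simulated data. Named genes were all members with a TF peak, with H3K27me3, with an H3K4me3 call or coverage that differed between libraries, or with H3K4me3 in all 4. Further members without peaks were named to show their group. The members, lists and motifs were chosen with earlier results of these data known. Cxcl11 is a pseudogene in this annotation and Ccl21c is not on a main chromosome, so neither was counted. The 2 pooled histone lists and 3 rat lists were not used, and the 8 inputs have no list. Alternatives were other windows, start sites, overlaps, sizes of difference and lists of equal length.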

Additional observations from a re-analysis of the deposited data

Results flagged for a closer look

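At 3 genes the H3K4me3 coverage of the window differed between Glis3KO and WT in opposite directions on the 2 diets, by at least 200 bp each way. With 1 library per group the difference between diets was not tested. Ccr10 had 355 bp more in Glis3KO on the ND and -439 bp (less) on the LID. Its regions lay beside the start site, towards Plekhh3 or Cntnap1. Cx3cl1, bound by both TFs in exon 1, had 663 bp more on the ND and -276 bp (less) on the LID. Cxcl12, bound by both TFs on either side of the start site, had -397 bp (less) on the ND and 217 bp more on the LID. The region at Cxcl12 as a whole was narrower in Glis3KO on both diets, 2149 against 3666 bp on the ND and 2541 against 3512 bp on the LID. The gain on the LID lay at its upstream edge, inside the 2001 bp window.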

How the results depend on the processing

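Of 85 alternatives, 59 left a count within 1.5 times of the one reported and 26 did not. The counts of bound genes followed the window. With 1 kb NKX2.1 was found at 7 genes and PAX8 at 7, and with 20 kb at 22 and 26, with overlapping pairs at 16. With lists of equal length, H3K27me3 in Glis3KO-LID was left at 3 genes and in any library at 4, as it was without the Glis3KO-LID library (4, chosen after seeing the data). Equal lists also gave 2 genes with more H3K27me3 in Glis3KO-LID than in WT-LID, 2 with more and 1 with less than in Glis3KO-ND, 1 with more in Glis3KO-ND than in WT-ND, and 1 with less H3K4me3 in Glis3KO-ND than in WT-ND. Counting differences of 200 bp, H3K4me3 was larger in Glis3KO-ND than in WT-ND at 5 genes, smaller in Glis3KO-LID than in WT-LID at 4, larger in WT-LID than in WT-ND at 4, and larger at 2 and smaller at 5 in Glis3KO-LID than in Glis3KO-ND. At that size H3K27me3 was larger in Glis3KO-ND at 4 and in WT-LID at 1 than in WT-ND. With 1000 bp, 0 genes were left for less H3K4me3 in Glis3KO-ND than in WT-ND, for more or less in Glis3KO-LID than in WT-LID, for more or less in WT-LID than in WT-ND, and for less in Glis3KO-LID than in Glis3KO-ND. Equal lists and larger differences keep fewer regions by construction. For H3K27me3, equal lists also asked for wider regions in Glis3KO-LID than in Glis3KO-ND. The 1 gene with less in Glis3KO-LID than in Glis3KO-ND, Cxcl5, came from this. Its region dropped in Glis3KO-LID was 4520 bp wide, and the one kept in Glis3KO-ND was 2033 bp. No paired analysis was possible because each group had 1 library.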
